A study of Mus musculus with 6 samples.

Results

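The DNA replication machinery was followed in mouse morulae through 46 genes, listed by symbol for their role, of the 55364 genes listed in the table. They comprise 23 genes of origin licensing and firing, 20 genes of the polymerases and the replication fork, and 3 genes of nucleotide supply. All 46 passed the filter on low values, a level of at least 1 TPM (a transcript count scaled for length and library size) in at least 3 libraries, as did 17353 genes in all. Morulae came from eggs of superovulated BDF1 females aged 8 to 12 weeks, fertilized in vitro with sperm of BDF1 males aged 10 to 12 weeks. BDF1 is an F1 hybrid mouse. In the *Yy1* KD group, zygotes had received an siRNA against *Yy1*, at 10 µM in the injected solution, 2 to 3 h after insemination. *Yy1* encodes a zinc finger transcription factor, YY1, which binds many promoters and enhancers. The Control KD group was the matched control knockdown, whose siRNA is not named in the sources used here. Each group had 3 libraries of total RNA from 10 pooled morulae, collected 64 h after insemination. The comparison asked how the mRNAs of the replication machinery stood at collection, after the siRNA had been injected at the zygote stage. These data do not show when YY1 was lost. The depletion was a transient knockdown, a pool hides differences between embryos, and only RNA was measured.

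Replication begins when the origin recognition complex, with CDC6 and CDT1, loads the ring-shaped MCM2-7 helicase on DNA in G1, a step that geminin blocks later in the cycle. The kinase CDC7 with DBF4, and then CDC45 and the GINS complex, turn the loaded MCM ring into an active helicase, behind which the polymerases copy both strands, held by the clamp PCNA and supplied with deoxynucleotides by ribonucleotide reductase and thymidylate synthase. Cleavage-stage embryos divide with little growth between divisions, and in many cell types the genes of this machinery are transcribed under E2F factors.

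Promoter sequences of the genes that fell are shown first, because the factor depleted here has a known DNA motif. They are RefSeq windows of build GRCm38.p6, from 250 bases before to 50 bases after the transcription start, and 38 of the 46 genes had one, *Gins4*, the gene that rose, not among them. The letters searched for YY1 were GCCATNTT, and AANATGGC for the other strand. The letters searched for E2F were TTTCCCGC, TTTCGCGC, TTTGCCGC and TTTGGCGC on either strand. The first 3 sequences are the 250 bases upstream of *Mcm5*, *Mcm2* and *Rrm1*, the genes that fell after the knockdown, printed 5′ to 3′ on the gene's own strand, with every match in capitals. They lie at chr8:75109259-75109508 on the plus strand, chr6:88898781-88899030 on the minus strand and chr7:102441445-102441694 on the plus strand. The whole *Mcm5* window lies upstream of the start that GENCODE gives this gene.
Mcm5: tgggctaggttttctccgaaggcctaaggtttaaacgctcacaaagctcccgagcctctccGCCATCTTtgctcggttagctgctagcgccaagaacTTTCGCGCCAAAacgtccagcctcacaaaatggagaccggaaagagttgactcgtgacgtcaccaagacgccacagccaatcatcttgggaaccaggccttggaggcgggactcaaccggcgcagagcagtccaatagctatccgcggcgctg
Mcm2: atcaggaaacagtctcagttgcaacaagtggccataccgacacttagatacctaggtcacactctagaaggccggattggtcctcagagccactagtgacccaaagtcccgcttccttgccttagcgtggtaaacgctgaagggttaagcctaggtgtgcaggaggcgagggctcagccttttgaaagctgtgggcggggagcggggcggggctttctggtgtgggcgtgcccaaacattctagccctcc
Rrm1: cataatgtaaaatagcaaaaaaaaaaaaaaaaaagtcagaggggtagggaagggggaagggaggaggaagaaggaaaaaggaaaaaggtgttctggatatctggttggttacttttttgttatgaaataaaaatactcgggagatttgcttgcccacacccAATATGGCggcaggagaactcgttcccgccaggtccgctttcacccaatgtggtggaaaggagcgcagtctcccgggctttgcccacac
The YY1 letters of *Mcm5* begin 189 bases upstream of the start, on the gene's strand. Its other capitals are 2 overlapping matches to the E2F letters, which begin 153 and 149 bases upstream. *Mcm2* held neither set of letters in its window. *Rrm1* held the YY1 letters on the other strand 89 bases upstream and again at base 3 of the transcript. The remaining YY1 matches among the genes followed are shown as stretches of 30 bases on the gene's strand, from chr2:5012878-5012907 (*Mcm10*, minus strand, 105 bases upstream), chr4:132768166-132768195 (*Rpa2*, plus strand, 183 bases upstream) and chr12:69228149-69228178 (*Pole2*, minus strand, base 24 of the transcript).
Mcm10: tgcccataacaAAGATGGCcaatcaggttg
Rpa2: tgccctcagtaAAGATGGCcgcgcatgctt
Pole2: gccaaatcgcgAACATGGCgccggagcggc
In all, 5 of the 38 genes with a window (13.2%) held the YY1 letters. The share was 6.96% of all 27025 genes with a window and 10.4% of the 9767 tested genes with a window. A gene was counted where any of its windows held the letters. The E2F letters were in 15 of the 38 genes (39.5%), beside 2.6% of all genes with a window and 4.79% of tested genes with a window. The 15 genes were *Orc1*, *Orc3*, *Cdc6*, *Cdt1*, *Mcm3*, *Mcm5*, *Mcm6*, *Mcm7*, *Gins3*, *Pola1*, *Pold1*, *Pold3*, *Pole2*, *Rfc3* and *Lig1*. Only *Mcm5* and *Pole2* held both sets. A match describes letters and is not a binding site.

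*Yy1* itself was lower in every knockdown library, at 96.0, 100.2 and 89.8 TPM in Control KD against 8.73, 8.90 and 8.32 TPM in *Yy1* KD (log2 fold change −3.32, limma adjusted p = 6.71e-05). TPM keeps no depth, but its low values were near whole multiples of 1 read pair, which gave about 12519597, 24417789 and 18109905 read pairs in Control KD and 18674188, 12865988 and 11793509 in *Yy1* KD. The 8 marker genes of morula cells summed to between 1768 and 2005 TPM in Control KD and between 1541 and 1690 TPM in *Yy1* KD, and 1 of them was called, *Tfap2c*, named after its value was seen, which was lower (log2 fold change −0.54, adjusted p = 0.0174). Marker genes of other sources were summed in the same way: 8 genes of cumulus or granulosa cells came to 0.610 to 1.06 TPM in Control KD against 0.186 to 2.09 TPM in *Yy1* KD, with 5 of them at 0 in all libraries, and 6 sperm genes to 0.322 to 0.599 and 0 to 2.26 TPM, with 1 at 0 in all libraries. The sums were 49.9 to 69.3 and 54.4 to 66.3 TPM for 7 oocyte genes, 10.9 to 18.3 and 8.78 to 30.7 TPM for 6 genes of the 2-cell stage, and 534 to 608 and 422 to 600.3 TPM for 6 trophectoderm genes. No cumulus, granulosa or sperm gene passed the filter, so none could be called. Of the other lists, 7 oocyte, 3 2-cell and 5 trophectoderm genes were tested, and none was called. The part of these marker differences in the results was not tested. In such bulk pools, fewer cells of a type and less RNA per cell cannot be told apart. The labels do not say whether the libraries of a group came from separate fertilizations, so p-values measure the spread between these libraries only.

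The replication genes were well expressed. Their mean level in Control KD ranged from 8.37 TPM for *Gins2* to 336 TPM for *Rrm2*, with a median of 61.4 TPM, beside 8.75 TPM for all genes tested. The TPM behaved as divided by the joined exon length of all annotated forms of a gene, not by the length of its mRNA. Levels of different genes can thus be set beside each other only roughly. A gene of the 46 was covered by 101 to 10597 recovered read pairs in a library. Together they summed to 3266 ± 37.0 TPM in Control KD against 3085 ± 102 TPM in *Yy1* KD (mean ± SD, n = 3).

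After the knockdown, 3 of the 46 genes fell and 1 rose at an adjusted p under 0.05 in the limma fit over all genes. *Mcm5* and *Mcm2*, subunits of the helicase ring, and *Rrm1*, the large subunit of ribonucleotide reductase, fell, while *Gins4*, a subunit of the GINS complex, rose. The share lower was 6.52%, beside 4.20% of all genes tested and 6.97% of the 8833 genes whose level in Control KD was at least that of *Gins2*. The share higher was 2.17%, beside 1.92% and 2.45%. The counts of called genes were thus close to the background, and what follows is about single genes rather than the machinery as a whole. The median log2 fold change over the 46 genes was −0.08, with 28 below 0 and 18 above, and a range from −0.91 to 0.40. Over all genes tested the median was −0.02 and 52.8% were below 0. All fold changes are on the log2(TPM + 1) scale, which understates changes of low genes.

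**Figure D1:**
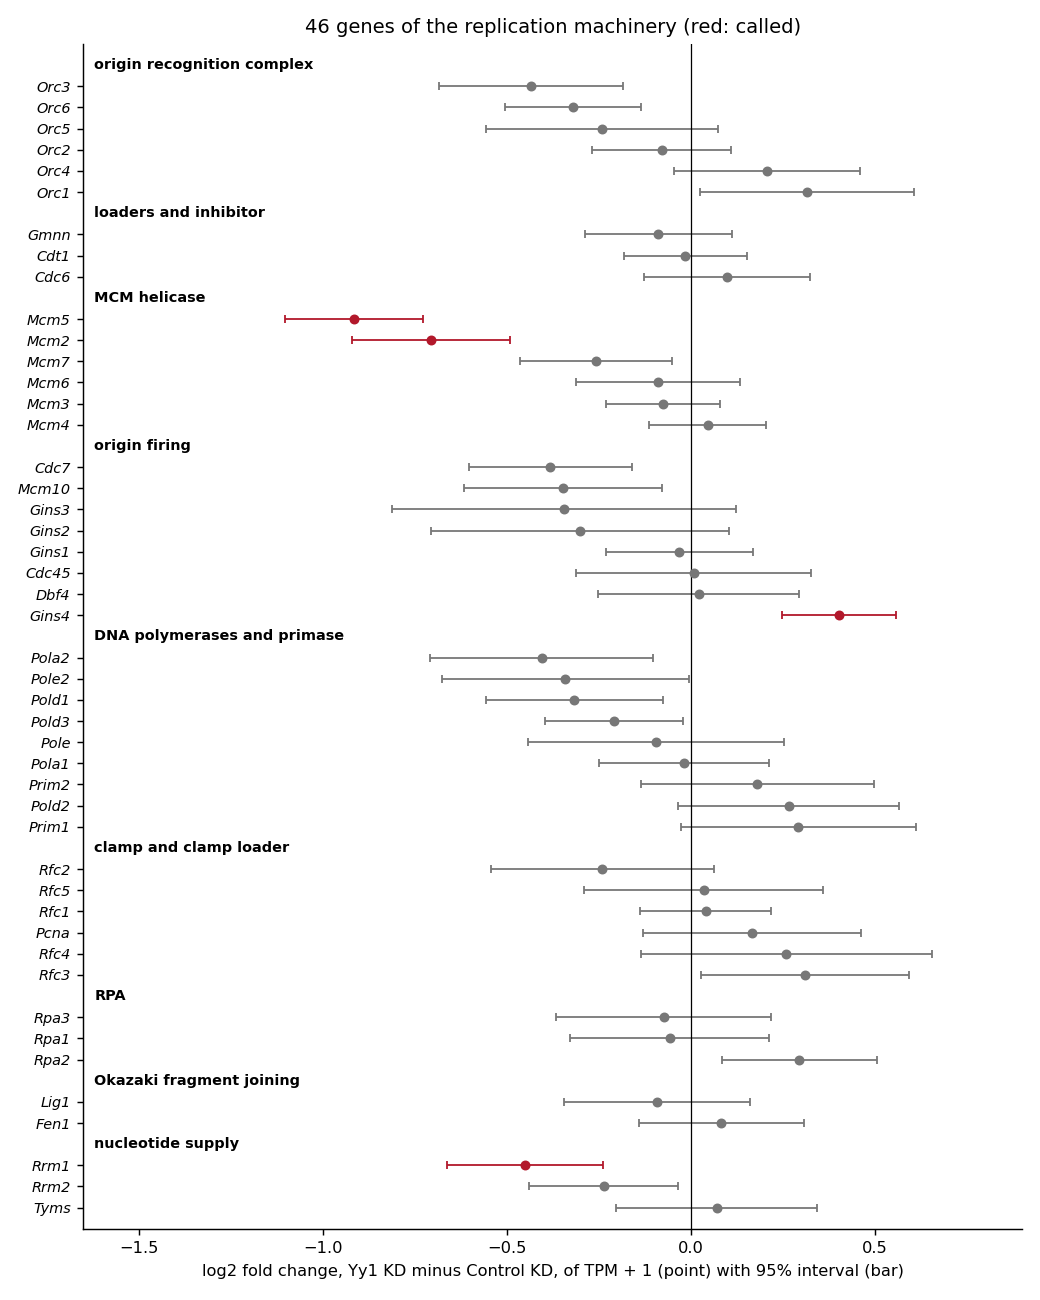
Log2 fold change of each of the 46 genes in *Yy1* KD against Control KD on the log2(TPM + 1) scale, grouped by role, with 95% intervals from limma. *Mcm5* (−0.91), *Mcm2* (−0.71) and *Rrm1* (−0.45) lie to the left and *Gins4* (0.40) to the right, all 4 in red as called, and the intervals of the other genes, in grey, lie above the *Mcm5* difference.

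More of the genes had groups that did not overlap, meaning that all 3 *Yy1* KD values lay on one side of all 3 Control KD values. This was so for 15 of 46 genes in the lower direction (32.6%), beside 17.2% of all genes tested, and for 4 in the higher direction (8.70%), beside 12.9%. The 46 genes had a higher median level than all genes tested (61.4 against 8.75 TPM), and the shares among genes of like level were not computed. The share of 32.6% can thus not be read as particular to the replication genes. With the libraries rescaled by median ratios the counts were 13 lower and 8 higher, beside 15.4% and 15.0% of all genes, so the split between directions moved with the scaling. In a 2-sided exact permutation test of 3 libraries against 3, each non-overlapping gene reached p = 0.1, the smallest p this design allows.

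**Figure D2:**
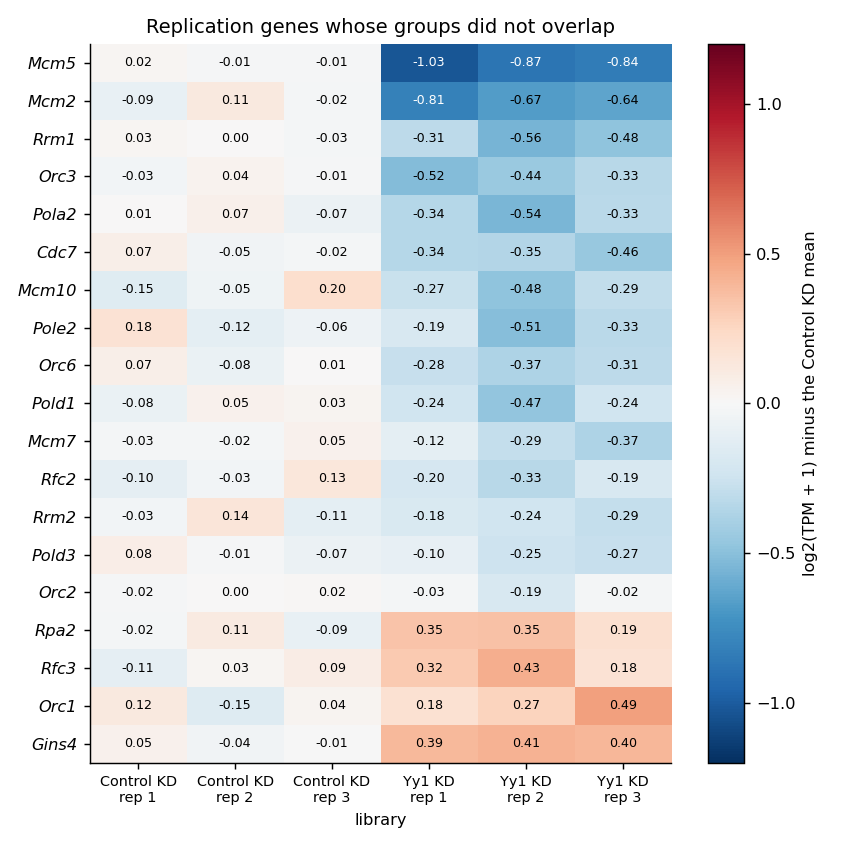
Heat map of log2(TPM + 1) minus the Control KD mean for the 19 replication genes (rows) whose groups did not overlap, in each of the 6 libraries (columns), with blue for lower and red for higher. The 15 upper genes are lower in all 3 *Yy1* KD libraries, most deeply *Mcm5* and *Mcm2*, and the 4 lower ones, *Gins4* among them, are higher.

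The MCM2-7 ring holds 1 copy of each of 6 subunits, and the knockdown moved their mRNAs unequally. *Mcm5* was at 109, 106 and 106 TPM in Control KD and at 51.9, 57.9 and 59.4 TPM in *Yy1* KD. The Control KD values lay within a few percent of each other, and the highest knockdown value was far below them. The mean fell from 107 ± 1.62 to 56.4 ± 4.0 TPM, or 52.7% of control (log2 fold change −0.91, SE 0.08, 95% interval −1.10 to −0.73, adjusted p = 0.00509). In Control KD, *Mcm5* (chr8:75109569-75128439, plus strand, build mm10) was expressed above 91.6% of the genes tested. Each of the 6 fits with 1 library removed called it, as did all 11 other settings tried, with log2 fold changes between −0.95 and −0.86 without 1 library.

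*Mcm2* was at 73.6, 84.9 and 77.1 TPM in Control KD and at 44.4, 48.8 and 50.1 TPM in *Yy1* KD. Here too the groups were well apart. Its mean fell from 78.6 ± 5.79 to 47.7 ± 2.98 TPM, or 60.8% of control (log2 fold change −0.71, SE 0.09, 95% interval −0.92 to −0.49, adjusted p = 0.0128). *Mcm2* (chr6:88883474-88898780, minus strand) was called in 4 of 6 fits without 1 library. The exceptions were those without Control KD replicate 2 (log2 fold change −0.65, adjusted p = 0.0513) and without Control KD replicate 3 (−0.72, adjusted p = 0.0600).

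The other subunits of the ring were not called. *Mcm7*, whose product forms part of the catalytic core, was at 89.2, 89.6 and 94.1 TPM in Control KD and at 83.6, 74.3 and 70.3 TPM in *Yy1* KD. Its groups did not overlap, with a log2 fold change of −0.26 (95% interval −0.46 to −0.05, adjusted p = 0.132). *Mcm3* was at 160.0, 161 and 163 TPM in Control KD against 160.3, 149 and 149 TPM in *Yy1* KD, *Mcm4* at 127, 129 and 137 and at 135, 132 and 138 TPM, and *Mcm6* at 134, 109 and 115 and at 109.6, 110.2 and 116 TPM. These 3 subunits overlapped between groups, and the intervals of their log2 fold changes were −0.23 to 0.08 for *Mcm3*, −0.11 to 0.20 for *Mcm4* and −0.31 to 0.13 for *Mcm6*. All 3 intervals lie above the *Mcm2* and *Mcm5* differences.

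The composition of the ring's mRNAs, which a scaling factor for a whole library leaves as it is, showed the same inequality. *Mcm5* made up 15.7%, 15.6% and 15.3% of the summed TPM of the 6 subunits in Control KD and 8.87%, 10.1% and 10.2% in *Yy1* KD. *Mcm2* made up 10.6%, 12.5% and 11.1% and then 7.59%, 8.52% and 8.58%, whereas *Mcm3* made up 23.1%, 23.6% and 23.5% and then 27.4%, 26.1% and 25.5%. *Mcm4* made up 18.3%, 19.0% and 19.7% and then 23.1%, 23.1% and 23.7%. The shares of *Mcm2*, *Mcm3*, *Mcm4* and *Mcm5* did not overlap between groups, and those of *Mcm6* and *Mcm7* did. The shares of a library add up to the whole, so lower shares of *Mcm5* and *Mcm2* raise the others. The higher shares of *Mcm3* and *Mcm4* are thus no sign that their own levels rose. The ratio of *Mcm5* TPM to *Mcm3* TPM was 0.664 ± 0.0148 in Control KD and 0.370 ± 0.0407 in *Yy1* KD. For *Mcm2* the ratio was 0.488 ± 0.0362 and 0.313 ± 0.0318. The sum over the ring was 688 ± 7.39 TPM in Control KD against 580.2 ± 6.76 TPM in *Yy1* KD. A ratio shows unequal change and not that *Mcm3* was constant.

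**Figure D3:**
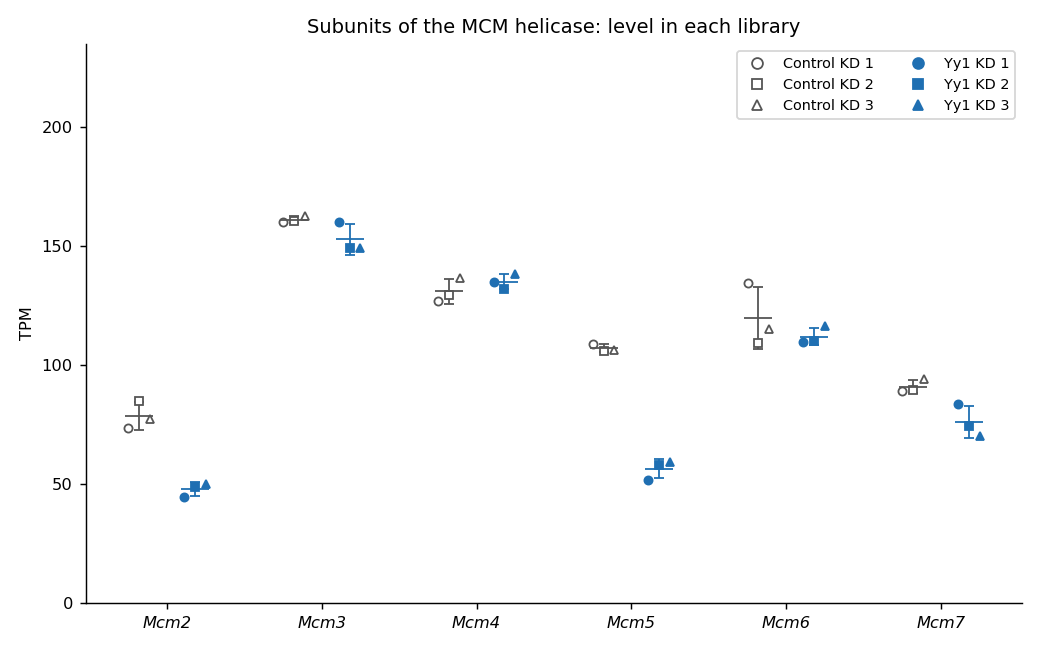
TPM of the 6 subunits of the MCM2-7 helicase in each library, with open symbols for Control KD, filled symbols for *Yy1* KD and bars for the mean ± SD of 3 libraries. *Mcm2* and *Mcm5* separate completely, *Mcm7* separates narrowly, and *Mcm3*, *Mcm4* and *Mcm6* overlap.

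Upstream of the ring, the origin recognition complex marks the sites where it is loaded. Its 6 genes summed to 222 ± 5.68 TPM in Control KD against 209 ± 9.30 TPM in *Yy1* KD, and none was called. *Orc3*, a core subunit, was at 18.8, 19.8 and 19.0 TPM in Control KD against 13.0, 13.8 and 15.0 TPM in *Yy1* KD (log2 fold change −0.43, SE 0.11, adjusted p = 0.0620). *Orc6*, the smallest subunit, was at 69.1, 62.5 and 66.3 TPM and then 54.2, 50.6 and 53.0 TPM (−0.32, SE 0.08, adjusted p = 0.0615). Both did not overlap and missed the threshold narrowly, and they were called in 3 (*Orc3*) and 2 (*Orc6*) of 17 alternatives, in neither case in a fit without 1 library, where the adjusted p was 0.0951 to 0.159 for *Orc3* and 0.0985 to 0.170 for *Orc6*. *Orc2*, another core subunit, was also lower in every knockdown library, at 63.6, 64.6 and 65.1 TPM against 63.3, 56.2 and 63.4 TPM, but by little (−0.08, adjusted p = 0.596). *Orc1*, the ATPase that leaves the complex after G1, differed the other way, at 29.3, 24.1 and 27.6 TPM in Control KD against 30.7, 32.6 and 38.2 TPM in *Yy1* KD (0.31, 95% interval 0.02 to 0.60, adjusted p = 0.178). *Orc4* (0.21) and *Orc5* (−0.24), further ATPase-fold subunits, overlapped between groups, *Orc5* at a level of 15.5, 15.9 and 13.0 against 12.9, 11.0 and 13.0 TPM.

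The loaders and their inhibitor differed little. *Cdc6*, which closes the loading complex on DNA, had a log2 fold change of 0.10 (95% interval −0.13 to 0.32). For *Cdt1*, which brings in the MCM ring, it was −0.02 (−0.18 to 0.15), and for *Gmnn*, which encodes the CDT1 inhibitor geminin, −0.09 (−0.29 to 0.11). All 3 overlapped between groups, and their intervals leave out a change of the size seen for *Mcm2*. *Cdt1* had the highest TPM of them, at 218 to 233 TPM in Control KD against 214 to 237 TPM in *Yy1* KD.

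Among the 8 genes of origin firing, *Gins4* (chr8:23226616-23237659, minus strand) rose. It was at 96.1, 90.1 and 92.4 TPM in Control KD and at 122, 124 and 122 TPM in *Yy1* KD. The 3 knockdown libraries lay close together and above every control. The mean rose from 92.9 ± 3.04 to 123 ± 1.03 TPM, or 132.4% of control (log2 fold change 0.40, SE 0.06, 95% interval 0.25 to 0.56, adjusted p = 0.0235). The call was lost in all 6 fits without 1 library, where the log2 fold change stayed between 0.38 and 0.43 and the adjusted p was between 0.0583 and 0.0880. Other subunits of the same 4-member complex did not show such a rise: *Gins1* was at 84.5, 72.9 and 73.8 TPM and then 75.7, 73.0 and 76.9 TPM, *Gins3* at 39.0, 22.1 and 32.0 and then 23.2, 24.7 and 22.9 TPM, and *Gins2* at 9.86, 8.38 and 6.89 and then 5.91, 6.86 and 6.92 TPM. All 3 overlapped between groups. The ratio of *Gins4* TPM to *Gins1* TPM was 1.21 ± 0.0619 in Control KD and 1.63 ± 0.0564 in *Yy1* KD. *Gins2* shares 67.3% of its exon length with *Gse1*, so its value is uncertain.

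*Cdc7*, the kinase that activates the loaded ring, was at 28.5, 26.3 and 26.8 TPM in Control KD and at 21.2, 21.1 and 19.5 TPM in *Yy1* KD (log2 fold change −0.38, SE 0.09, adjusted p = 0.0621). Its partner *Dbf4* overlapped between groups, at 46.8, 41.0 and 45.2 and then 49.4, 38.9 and 47.0 TPM. *Mcm10*, which helps the helicase to start, was lower in every knockdown library, at 98.0, 105 and 125 TPM against 90.2, 77.6 and 88.5 TPM (−0.35, 95% interval −0.62 to −0.08, adjusted p = 0.123). *Cdc7* and *Mcm10* both separated the groups without passing the threshold in this fit. Among the 17 alternatives, *Cdc7* was called in 2 and *Mcm10* in 1, that with voom (limma-voom adjusted p = 0.0383). *Cdc45*, which joins the helicase, had a log2 fold change of 0.01 (adjusted p = 0.983).

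None of the 20 genes of the polymerases and the fork was called. Their median log2 fold change was 0.01, and they summed to 1002 ± 10.8 TPM in Control KD against 1022 ± 84.2 TPM in *Yy1* KD. Of the 9 genes of DNA polymerases and primase, 4 were lower in every knockdown library (44.4%), beside 17.2% of all genes tested. The share among genes of like level was not computed, so this count is not read as a trait of the polymerases. *Pold3*, an accessory subunit of polymerase delta, was at 199.8, 187 and 180.0 TPM in Control KD against 176, 159 and 156 TPM in *Yy1* KD (−0.21, adjusted p = 0.169), and *Pold1*, its catalytic subunit, at 34.9, 38.3 and 37.8 and then 31.2, 26.4 and 31.1 TPM (−0.32, adjusted p = 0.118). *Pola2*, the second subunit of polymerase alpha, was at 12.4, 12.9 and 11.6 and then 9.47, 8.11 and 9.59 TPM (−0.41, adjusted p = 0.115), and *Pole2*, the second subunit of polymerase epsilon, at 18.2, 14.7 and 15.3 and then 13.9, 11.0 and 12.5 TPM (−0.34, adjusted p = 0.203). These 4 differences are modest beside that of *Mcm5*, and their adjusted p-values lie well above the threshold in this fit. Among the alternatives, *Pola2* was called once, with voom (limma-voom adjusted p = 0.0467). The catalytic subunits *Pola1* (−0.02) and *Pole* (−0.10), the primase genes *Prim1* (0.29) and *Prim2* (0.18), and *Pold2* (0.26), an accessory subunit of polymerase delta, overlapped between groups.

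None of the 6 genes of the clamp and its loader was called, and those whose groups did not overlap went both ways. *Pcna*, the sliding clamp, was at 85.4, 93.2 and 90.5 TPM in Control KD and at 119, 99.6 and 85.9 TPM in *Yy1* KD, and its groups overlapped. Of the 5 loader genes, *Rfc3* was higher in every knockdown library, at 14.1, 15.6 and 16.3 against 19.3, 21.0 and 17.4 TPM (0.31, adjusted p = 0.172), and *Rfc2* was lower, at 11.0, 11.7 and 13.2 against 10.3, 9.26 and 10.3 TPM (−0.24, adjusted p = 0.310). For *Rfc4* the values were 71.3, 66.2 and 79.9 and then 111, 71.7 and 81.8 TPM. The first *Yy1* KD replicate stood highest for both *Pcna* and *Rfc4*, and without 1 library the log2 fold change ranged from 0.04 to 0.28 for *Pcna* and from 0.08 to 0.39 for *Rfc4*. *Rfc1* (0.04) and *Rfc5* (0.03) overlapped between groups.

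Of the 3 genes of replication protein A, the trimer that coats single-stranded DNA, none was called. *Rpa2*, the middle subunit, was at 64.6, 71.1 and 61.9 TPM in Control KD against 83.8, 84.0 and 75.1 TPM in *Yy1* KD, without overlap (0.29, 95% interval 0.08 to 0.50, adjusted p = 0.104). *Rpa1* (−0.06) and *Rpa3* (−0.07), the large and the small subunit, overlapped between groups. So did both genes of Okazaki fragment processing, the ligase *Lig1* (−0.09) and the flap nuclease *Fen1* (0.08), although 84.2% of the exon length of *Fen1* is shared with overlapping genes. In all, 8 of the 46 genes share over 10% of their exon length with another gene, where read pairs were divided without regard to strand. Beside *Fen1* and *Gins2* these are *Orc2* (29.8%), *Rfc2* (15.1%), *Rfc4* (12.7%), *Mcm7* (12.6%), *Orc1* (10.8%) and *Rfc5* (10.7%), whose values are less certain for it. *Mcm5*, *Mcm2*, *Rrm1* and *Gins4* share none.

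In nucleotide supply, *Rrm1* (chr7:102441695-102469771, plus strand) was at 65.0, 63.8 and 62.6 TPM in Control KD and at 51.2, 43.0 and 45.3 TPM in *Yy1* KD. The groups were clearly apart. The mean fell from 63.8 ± 1.22 to 46.5 ± 4.21 TPM, or 72.9% of control (log2 fold change −0.45, SE 0.09, 95% interval −0.66 to −0.24, adjusted p = 0.0373). The call held in 1 of the 6 fits without 1 library, that without *Yy1* KD replicate 1 (−0.52, adjusted p = 0.0435). In the other fits the log2 fold change was between −0.46 and −0.40 and the adjusted p between 0.0936 and 0.112. *Rrm2*, the small subunit of the same enzyme, had the highest TPM of the 46 genes. It was lower in every knockdown library, at 328, 370.4 and 310.0 TPM against 296, 283 and 274 TPM (−0.24, 95% interval −0.44 to −0.03, adjusted p = 0.152). The ratio of *Rrm1* to *Rrm2*, 0.191 and 0.163 on average, overlapped between groups. *Tyms*, thymidylate synthase, also overlapped, at 58.8, 64.8 and 57.1 and then 70.3, 54.3 and 65.9 TPM.

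**Figure D4:**
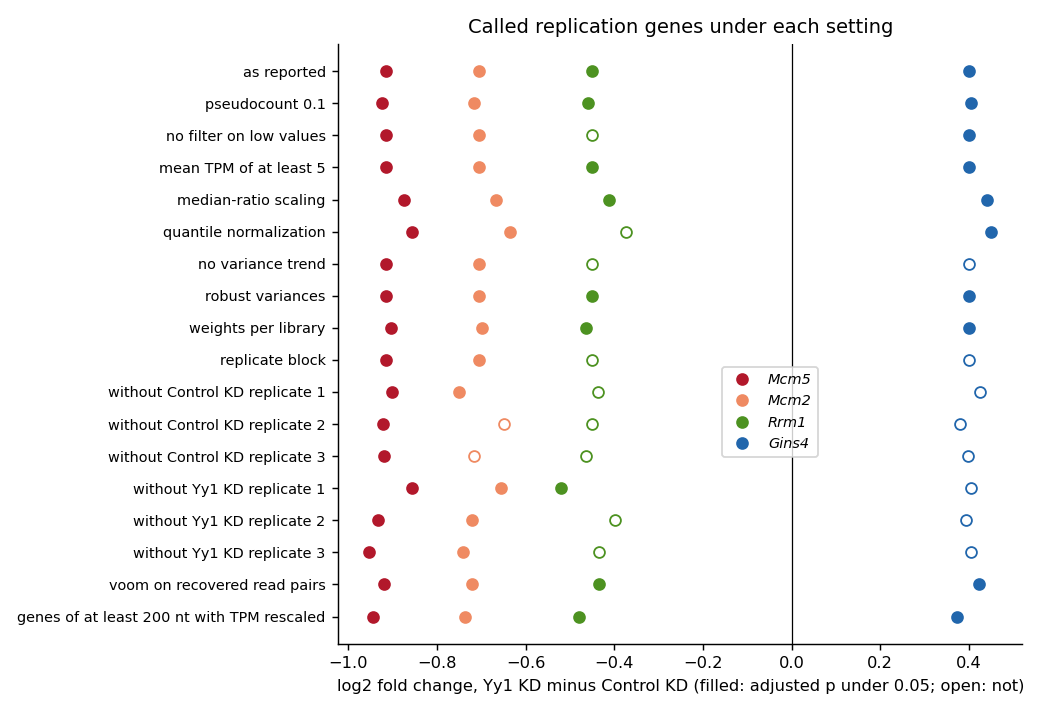
Log2 fold change, *Yy1* KD minus Control KD, of *Mcm5*, *Mcm2*, *Rrm1* and *Gins4* under each setting (rows), with filled symbols where the adjusted p was under 0.05 and open symbols where it was not. *Mcm5* was called throughout, *Mcm2* in all but 2 fits, and *Gins4* in none of the fits without 1 library.

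For the 42 genes that were not called, the precision of the data sets what could be seen. The median SE was 0.11 on the log2 scale, beside 0.21 over all genes tested. For all 42, the 95% interval lay above the difference measured for *Mcm5*. For 40 of them, the interval lay between minus and plus the difference of *Mcm2*, with *Gins3* (−0.81 to 0.12) and *Pola2* (−0.71 to −0.10) as the exceptions. The intervals leave room for smaller changes, and whether one was called depended on the gene's own SE. An unadjusted p under 0.05 was found for 17 of the 46 genes, 13 lower and 4 higher, beside 23.8% of all genes tested. The share among genes of like level or SE was not computed.

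Set beside the promoter letters, the 5 genes with the YY1 letters had log2 fold changes with a median of −0.35, and 4 of the 5 were below 0, with *Rpa2* as the exception. *Mcm5* and *Rrm1* were among them and were called. The 33 genes with a window but without these letters had a median of −0.06, and 19 of them were below 0. *Mcm2*, which fell, is one of these 33. The 15 genes with the E2F letters had a median of −0.09, and 1 was called, *Mcm5*. The other 23 had a median of 0.01, and 2 were called. These splits are descriptions of a few genes and were not tested. The same splits were not made over all genes tested, so these counts and medians have no background beside them. No link between letters and change is read from them.

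Beyond the 46 genes, 97 further genes that work with the machinery were read from the same fit, in 4 lists. Of these, 7 fell (7.22%) and 3 rose (3.09%), to be read against the same 4.20% and 1.92% of all genes. Of the 82 among them with a level of at least that of *Gins2*, 7 fell (8.54%) and 3 rose (3.66%), beside 6.97% and 2.45% of all genes at that level. The median log2 fold change of the 97 was −0.01. Among 29 replisome partners 3 fell (10.3%). Each of the 4 lists is small, and its counts are not read as a result about the list. *Top1*, the topoisomerase that relaxes DNA ahead of the fork, was at 215, 184 and 199 TPM in Control KD against 123, 116 and 118 TPM in *Yy1* KD (−0.74, adjusted p = 0.0102). *Tipin*, a subunit of the fork protection complex, was at 108, 101 and 98.5 and then 70.0, 72.1 and 71.1 TPM (−0.52, adjusted p = 0.0138). *Mcmbp*, which binds MCM subunits, was at 61.3, 70.1 and 62.7 and then 44.5, 41.2 and 51.2 TPM (−0.50, adjusted p = 0.0462). The groups of all 3 were apart, but the call of *Mcmbp* was lost whichever library was left out, and that of *Tipin* in 4 of 6 such fits.

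Among 10 genes of chromatin assembly at the fork, 1 fell (10%), beside 4.20% of all genes tested. It was *Nasp*, a histone chaperone, at 217, 199 and 208 TPM in Control KD against 138, 143 and 136 TPM in *Yy1* KD (−0.58, adjusted p = 0.0114). Among 30 further genes of nucleotide supply, 1 rose (3.33%), beside 1.92% of all genes tested, and none fell. This was *Impdh2*, the rate-limiting enzyme of guanine nucleotide synthesis, at 1067, 1014 and 979 TPM and then 1265, 1480 and 1361 TPM (0.42, adjusted p = 0.0381). The 30 genes summed to 3101 ± 70.6 TPM in Control KD against 3559.9 ± 85.2 TPM in *Yy1* KD, with *Impdh2* as a large share of both. The call of *Impdh2* was lost in all 6 fits without 1 library.

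Among 28 genes of S-phase control, 3 fell (10.7%) and 2 rose (7.14%), beside 4.20% and 1.92% of all genes tested. *Ccne2*, a cyclin of the G1 to S transition, was at 27.2, 22.3 and 25.1 TPM in Control KD and at 44.6, 49.6 and 53.3 TPM in *Yy1* KD (0.96, adjusted p = 0.0122), the widest change of the 97 genes in the upward direction. *Ccna2*, the S-phase cyclin, was at 218, 203 and 187 and then 255, 277 and 271 TPM (0.40, adjusted p = 0.0387). Both cyclins were higher in every knockdown library, and both overlap another gene. *Cul4b*, a scaffold of the ubiquitin ligase that degrades CDT1, was at 147, 131 and 155 and then 92.6, 78.0 and 86.5 TPM (−0.74, adjusted p = 0.0130). Its relative *Cul4a* was at 23.6, 21.3 and 20.2 and then 14.3, 15.1 and 15.3 TPM (−0.51, adjusted p = 0.0426). *E2f6*, a repressor of the E2F family, was at 18.5, 19.9 and 19.0 and then 14.5, 11.9 and 11.7 TPM (−0.56, adjusted p = 0.0468). These 3 were lower without overlap. Without 1 library, the call was kept in 5 of 6 fits for *Top1* and *Ccne2* (lost without Control KD replicate 3), in 4 of 6 for *Nasp* and *Cul4b* (lost without Control KD replicate 1 or 3), and in none for *Ccna2*, *Cul4a* and *E2f6*.

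**Figure D5:**
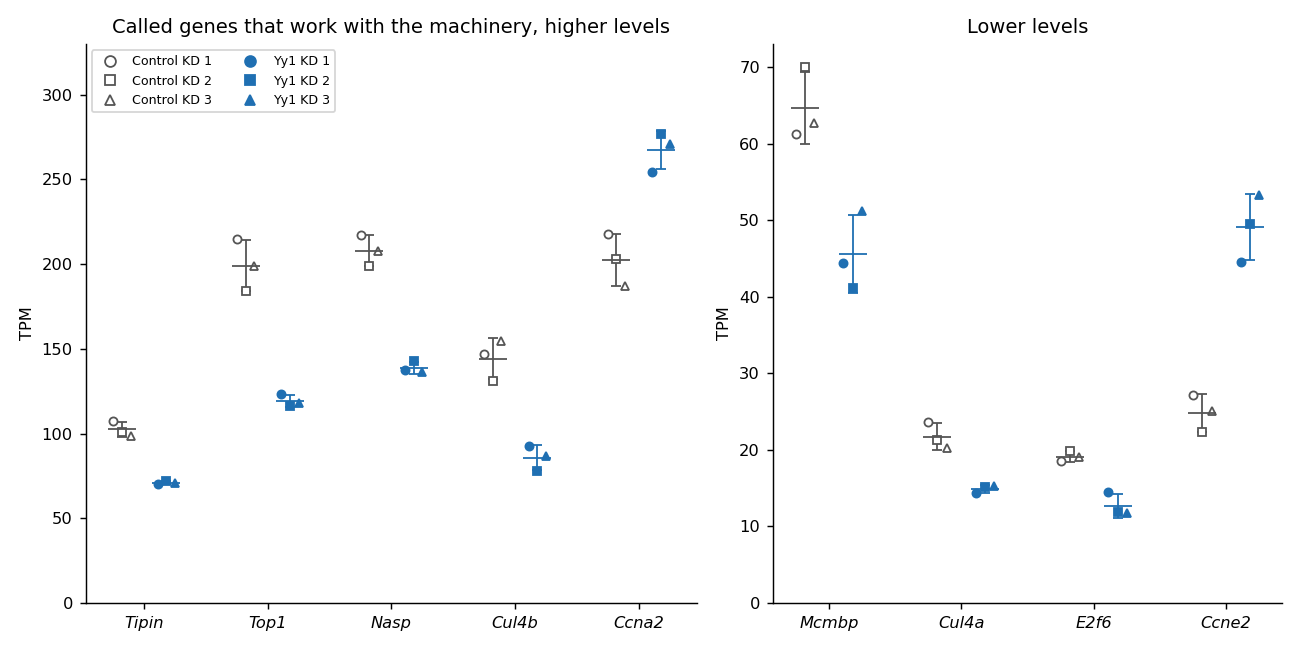
TPM in each library of 9 called genes that work with the replication machinery (*Impdh2* is left out for its scale), on 2 linear axes for higher and lower levels, with open symbols for Control KD, filled symbols for *Yy1* KD and bars for the mean ± SD of 3 libraries. *Ccne2* and *Ccna2* are higher in every *Yy1* KD library, and the 7 genes that fell are lower in every one.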

How the data were processed

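Total RNA-seq of 3 Control KD and 3 *Yy1* KD libraries, grouped by their labels, was used. The authors trimmed the reads (Trim Galore 0.6.7), aligned them to mm10 with HISAT2 2.2.1, discarded reads on ribosomal RNA (bedtools), counted read pairs over GENCODE vM25 genes with featureCounts 2.0.1, with strand ignored and pairs on several genes divided, and deposited TPM per gene and library (tool versions from the submitters' processing notes). The authors tested read counts with edgeR. Because TPM are not counts, limma 3.58.1 (R 4.3.3) was fitted here to log2(TPM + 1) with a variance trend, over genes with at least 1 TPM in at least 3 of 6 libraries, with Benjamini-Hochberg adjustment over all 17353 genes. A gene was called, and said to have risen or fallen, at an adjusted p under 0.05. SE and 95% intervals are from limma, and ± is the SD over 3 libraries.

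The 46 genes and the further lists were chosen with earlier results of these data known. All 46 may be named, and of the further lists those called. Values per library are given for called genes, for genes whose groups did not overlap and for subunits beside a called one. Marker lists were written from general knowledge. To gauge depth, TPM were turned back into read pairs with the exon lengths of GENCODE vM21, which matched 54312 of 55364 identifiers, with 89.0% to 90.9% of low values within 0.02 of a whole number. Coordinates are from GENCODE vM21 on GRCm38. Other settings tried were a pseudocount of 0.1, no filter or a mean of at least 5 TPM, median-ratio or quantile scaling, other variance models, library weights, a term for the replicate number (replicate block) and the removal of 1 library at a time. A limma-voom fit to the recovered pairs and a table of genes of at least 200 nt rescaled to the same total were added after seeing the data. Tables used Python 3.11.15 with pandas 2.3.3 and scipy 1.17.1, and figures matplotlib 3.10.9. No column of library values was left unused.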

Additional observations from a re-analysis of the deposited data

How the results depend on the processing

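*Mcm5* was called under all 17 alternatives and *Mcm2* under 15, and neither they nor *Rrm1* and *Gins4* changed sign. Of the 46 genes, 35 kept their sign under every alternative. Beside 3 lower and 1 higher of the 46, 728 lower and 333 higher of all genes, and 7 lower and 3 higher of the 97 further genes, the counts that moved by over 1.5 times were as follows. Without the filter on low values, 270 genes were called lower and 77 higher, and 4 and 1 of the 97. With a mean of at least 5 TPM, 6 of the 46 were lower (*Orc3*, *Orc6* and *Cdc7* being added) and 5 of the 97 higher. Without the variance trend, 0 of the 46 were higher, with 382 and 132 of all genes and 4 and 1 of the 97. With the replicate block, 0 of the 46 were higher, with 218 and 69 of all genes and 3 and 1 of the 97. With voom, 6 of the 46 were lower (*Orc3*, *Mcm10* and *Pola2* being added), with 1280 and 809 of all genes and 14 and 7 of the 97. With genes under 200 nt removed, 6 of the 46 (*Orc3*, *Orc6* and *Cdc7* being added) and 11 of the 97 were lower. Median-ratio and quantile scaling each left 4 of the 97 lower, and under quantile scaling 548 and 388 of all genes were called, so that 58.5% of calls were lower, against 68.6%. Under quantile scaling the median of the 46 log2 fold changes was −0.000871, and that of all genes was 0.00593 without the filter, 0.00908 with median ratios and 0.0209 with quantiles, so the median of all genes changed sign with these settings and that of the 46 came close to 0.

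Leaving out 1 library, which leaves 5 in the fit, gave 1 to 3 lower and 0 higher of the 46 genes, 53 to 326 lower and 22 to 92 higher of all genes, and 0 to 6 lower and 0 to 1 higher of the 97. The lowest counts of all genes came without Control KD replicate 3 and the highest without *Yy1* KD replicate 1. Of the 46 genes, 1 was lower without Control KD replicate 2 or 3, 3 without *Yy1* KD replicate 1 and 2 without each of the others. The medians lay between −0.0992 and −0.0172 for the 46 genes and between −0.0442 and −0.0168 for all genes, and *Yy1* between −3.36 and −3.28. *Rrm1* was not called without the filter, with quantile scaling, without the trend or with the replicate block (adjusted p = 0.0732, 0.0660, 0.0914 and 0.0862, limma), nor *Gins4* without the trend (0.0867) or with the block (0.0797). Libraries of the same replicate number had correlations of deviations of −0.004, 0.03 and 0.07, and not every library was closest to its own number. Such correlations cannot tell whether libraries were made together, so any pairing remains unknown. The short core GCCAT was in 52.6% of the 38 genes with a window, against 13.2% for GCCATNTT. Its background was also high, at 43.9% of tested genes with a window and 44.2% of all genes with a window. Whether a difference was called depended on its own SE, since *Gins4* (0.40, SE 0.06) was called and *Orc3* (−0.43, SE 0.11) was not.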
